A study of Mus musculus with 6 samples.

Results

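The genes described here are 35 regulators of apoptosis and related death signalling, taken as the rows of the deposited table whose gene name equals a member of a fixed list. All 35 were found among 49671 rows, each once, and 33 had a mean of at least 20 over the 6 libraries. The members below that level were Bik, listed at 2 to 9, and Hrk, listed at 2 to 17, both BH3-only genes. RNA was sequenced from LKPR EPCAM+ cells, a mouse skin squamous carcinoma line that carries Lgr5CreER, in which Cre is driven from Lgr5, and alleles it acts on, among them p53fl/fl (floxed Trp53) and a Rosa26-YFP+/+ reporter. All 3 groups carry this genotype, came from this one line and were cultured for 6 days, and living cells positive for YFP and EPCAM were sorted before RNA was extracted. The controls carried an empty lentiviral vector (2 libraries), and the others a pLKO.1 knock-down of the netrin-1 gene Ntn1, a secreted ligand (2 libraries), or of the netrin receptor gene Unc5b (2 libraries). Values are scaled by the authors to 20 M reads per library, and levels are given in that unit. Whether the libraries of a group are separate cultures is not stated, and p-values therefore measure only library-to-library spread, which may be technical. In bulk RNA, fewer cells expressing a gene and less of its RNA per cell cannot be told apart.

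Apoptosis can start at mitochondria or at death receptors on the cell surface. In the mitochondrial route BH3-only proteins bind BCL-2 type survival proteins and release BAX and BAK, which let cytochrome c out to form the apoptosome with APAF1 and caspase-9. In the receptor route ligands such as FAS ligand, TRAIL and TNF assemble caspase-8 through FADD and TRADD, with c-FLIP and the IAP proteins as brakes. UNC5B is a dependence receptor, a class known to promote death when its ligand is absent, so the comparisons ask how genes of these routes stood when the ligand or the receptor was lowered. Sorting kept living cells only, and the levels describe RNA, not protein or caspase activity.

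Each targeted gene was lowest where the label names its knock-down. Ntn1 was listed at 1566 and 2588 in the empty vector, 359 and 431 under Ntn1 knock-down and 1319 and 771 under Unc5b knock-down. Unc5b was listed at 1527 and 1573, 2311 and 2382, and 419 and 352 in the same order. In the limma fit described below, Unc5b was called higher with Ntn1 knocked down (1.51-fold, adjusted p = 0.0193), a call lost under 5 of 15 other settings. Ntn1 was 1.99-fold lower with Unc5b knocked down, which did not pass (adjusted p = 0.0638). The estimated depth was 6.54 to 10.2 M reads per library, where a floor of 3 reads corresponds to 5.90 to 9.17 scaled reads, and the floor covers counting error only. All 10 epithelial markers had a mean of at least 20, and their sum was 61114 and 58241 in the empty vector, 79371 and 75100 under Ntn1 and 59390 and 63660 under Unc5b knock-down. They did not move together. Krt19 was listed at 1191 and 1242, 442 and 419, and 671 and 454 in the same order, and Trp63 at 94 and 96, 33 and 31, and 152 and 88. Both were lower under Ntn1 knock-down, where Itgb4 overlapped the empty vector and the other epithelial markers were higher. Of the markers of other cells, 2 of 8 fibroblast, 4 of 10 immune, 2 of 6 endothelial and 4 of 7 melanocyte and nerve genes had a mean of at least 20. The summed immune list was 1436 and 1681 in the empty vector, 996 and 1036 under Ntn1 and 1863 and 1314 under Unc5b knock-down, most of it Csf1r in the empty vector and the Unc5b knock-down. Within that list Csf1r was listed at 1213 and 1511, 347 and 443, and 1569 and 1003 in the same order, lower under Ntn1 knock-down. Mrc1 was listed at 4 and 2, 350 and 263, and 21 and 56, Cd14 at 134 and 137, 190 and 202, and 184 and 160, and Cd68 at 81 and 25, 107 and 122, and 83 and 90. Mrc1, Cd14 and Cd68 stood higher in every knock-down library, while the defining genes Adgre1 and Lyz2 were at 0 throughout and Ptprc reached at most 5. The fibroblast sum was 128 and 135, 277 and 186, and 241 and 142 in the same order. The endothelial sum was 108 and 101, 180 and 223, and 100 and 90. Within it Cdh5 was listed at 0 and 0, 86 and 113, and 2 and 0, and Pecam1 at 104 and 94, 90 and 107, and 96 and 88. The melanocyte and nerve sum was 2935 and 2388, 1119 and 1131, and 1846 and 1675, with Dct at 0 throughout. Most of it was Mitf and Mbp, listed at 1513 and 1100 and at 1378 and 1235 in the empty vector. The part of these shifts in the results that follow was not tested.

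The promoters of 3 members that were called changed are printed from the RefSeq table of build GRCm38.p6, because each holds a match to a response element that was searched. Windows run from 250 bases before to 50 after an annotated start, on the strand given, and capitals mark the match. The first holds an AP-1 element (TGANTCA) 211 bases before the start of Fas, the second a forkhead element (GTAAACA) 227 bases before a start of Bcl2l11, and the third a match to the kappaB consensus 242 bases before 1 of 3 starts of Bcl2l1.
Fas, chr19:34290409-34290708, plus strand: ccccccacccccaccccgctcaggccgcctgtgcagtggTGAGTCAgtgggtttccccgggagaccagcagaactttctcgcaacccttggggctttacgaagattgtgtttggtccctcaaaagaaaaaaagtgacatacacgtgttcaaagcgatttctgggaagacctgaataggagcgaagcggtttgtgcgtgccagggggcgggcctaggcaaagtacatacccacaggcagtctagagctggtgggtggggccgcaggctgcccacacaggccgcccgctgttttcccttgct
Bcl2l11, chr2:128125788-128126087, plus strand: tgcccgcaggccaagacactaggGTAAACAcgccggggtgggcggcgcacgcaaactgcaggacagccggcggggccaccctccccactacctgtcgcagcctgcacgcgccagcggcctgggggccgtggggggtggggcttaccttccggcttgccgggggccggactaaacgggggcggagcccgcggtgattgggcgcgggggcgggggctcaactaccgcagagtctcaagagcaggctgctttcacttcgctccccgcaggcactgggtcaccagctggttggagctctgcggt
Bcl2l1, chr2:152830668-152830967, minus strand: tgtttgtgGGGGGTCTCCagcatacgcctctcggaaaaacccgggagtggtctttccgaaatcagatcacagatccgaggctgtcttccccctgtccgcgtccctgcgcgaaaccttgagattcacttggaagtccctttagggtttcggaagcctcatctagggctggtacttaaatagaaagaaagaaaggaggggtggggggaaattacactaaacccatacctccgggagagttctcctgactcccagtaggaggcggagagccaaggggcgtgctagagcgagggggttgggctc
Windows were found for 30 of the 35 members, 42 windows in all, and both strands were searched. The AP-1 element was in 1 of the 42 windows, that of Fas, against 7.81% of all 32851 windows in the table. The forkhead element was in 2 of the 42 (3.65% of all windows), of Bbc3 and Bcl2l11. The kappaB consensus was in 4 of the 42 (4.51% of all windows), of Aifm1, Bbc3, Bcl2l1 and Bmf. The half-site of the p53 consensus was in 3 of the 42 (8.36% of all windows), of Bax, Birc2 and Bmf. Only in the Bmf and Bbc3 windows were 2 of these 4 motifs found in 1 gene. A match describes letters in the window and is not evidence of binding.

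In the empty vector cells the most abundant members per length of annotated exon were Mcl1, a survival gene, at 1399 scaled reads per kb, and Bak1, which encodes a pore-forming effector, at 887. Bcl2l1, which encodes BCL-XL, followed at 642, Casp8 at 482 and Xiap at 459. The empty vector libraries of Mcl1 did not overlap those of Bak1 per kb (1287 and 1510 against 1025 and 750), while Casp8 (519 and 445) and Xiap (430 and 487) overlapped. The lowest of the 33 were Ripk3 at 55.0, Casp9 at 51.3 and Casp1 at 40.7 per kb. Of the ligand genes, picked from the list of other death genes after their values were seen, the FAS ligand gene Fasl was listed at 0 in 5 libraries and 2 in the other, and the TRAIL gene Tnfsf10 reached at most 12. The spread between the libraries of a group had a median coefficient of variation of 12.5% over the 33 members in the empty vector, 7.20% in the Ntn1 and 11.4% in the Unc5b knock-down, and was widest for Bmf in the empty vector, at 71.5%.

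**Figure D1:**
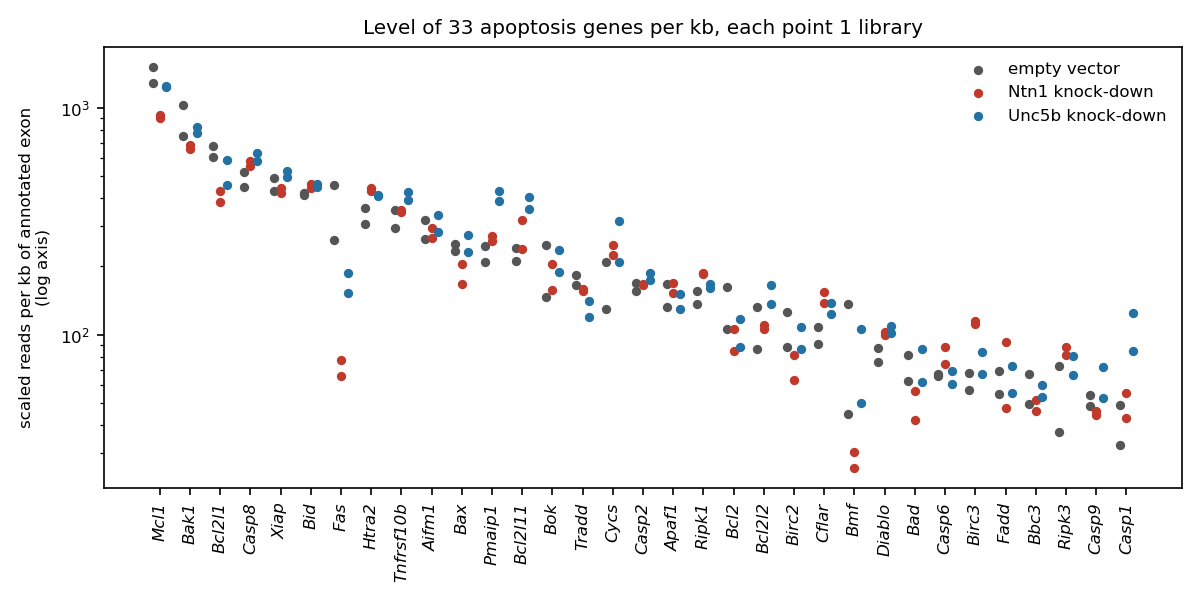
Level of the 33 members with a mean of at least 20, as scaled reads per kb of annotated exon on a log axis, in order of the empty vector mean, with 1 point per library. Mcl1 leads at 1399 per kb in the empty vector and Casp1 is last at 40.7, and the Fas points of the knock-downs lie below those of the empty vector.

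Counts of changed members are from limma on log2(value + 5), fitted to all 15330 genes with a mean of at least 20, at a Benjamini-Hochberg adjusted p under 0.05. With Ntn1 knocked down 5 of 33 members were called, where 15.1% of all genes tested were called. Of the 5, 2 were higher (Birc3 and Cflar, beside 8.04% of all genes) and 3 lower (Fas, Mcl1 and Bcl2l1, beside 7.06%). With Unc5b knocked down 4 of 33 members were called, against 12% of all genes. Of the 4, 3 were higher (Pmaip1, Bcl2l11 and Casp1, beside 5.9% of all genes) and 1 lower (Fas, beside 6.07%). Directly between the knock-downs 2 of 33 members were called, against 7.1% of all genes, with 0 higher in the Ntn1 knock-down (beside 4.15%) and 2 lower there (Fas and Pmaip1, beside 2.95%). These shares are near the background, so the members did not stand out by number. Against the empty vector the median log2 fold change of the 33 members was 0.04 for Ntn1 (all genes, -0.02) and 0.15 for Unc5b (all genes, 0.04). In all, 8 members were called in at least 1 comparison and 25 in none. The comparisons with the empty vector share the same 2 control libraries.

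The counts moved when single libraries were left out. In each case given here the count over all genes tested moved in the same direction, so the movement was not particular to the members. Without Ntn1 knock-down library 1 or library 2, where the spread of the lone one is taken from the other groups, 1 member stayed called in the Ntn1 comparison, and without empty vector library 1 the count was 9. In the Unc5b comparison it was 0 without Unc5b knock-down library 1 (limma, 8 at an unadjusted p under 0.05) and 1 without library 2. It was 2 without either Ntn1 knock-down library, which do not enter that fold change, and 6 without empty vector library 1. The direct count was 0 without any one of the 4 knock-down libraries (limma, 3 to 8 at an unadjusted p under 0.05) and 4 without either empty vector library.

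**Figure D2:**
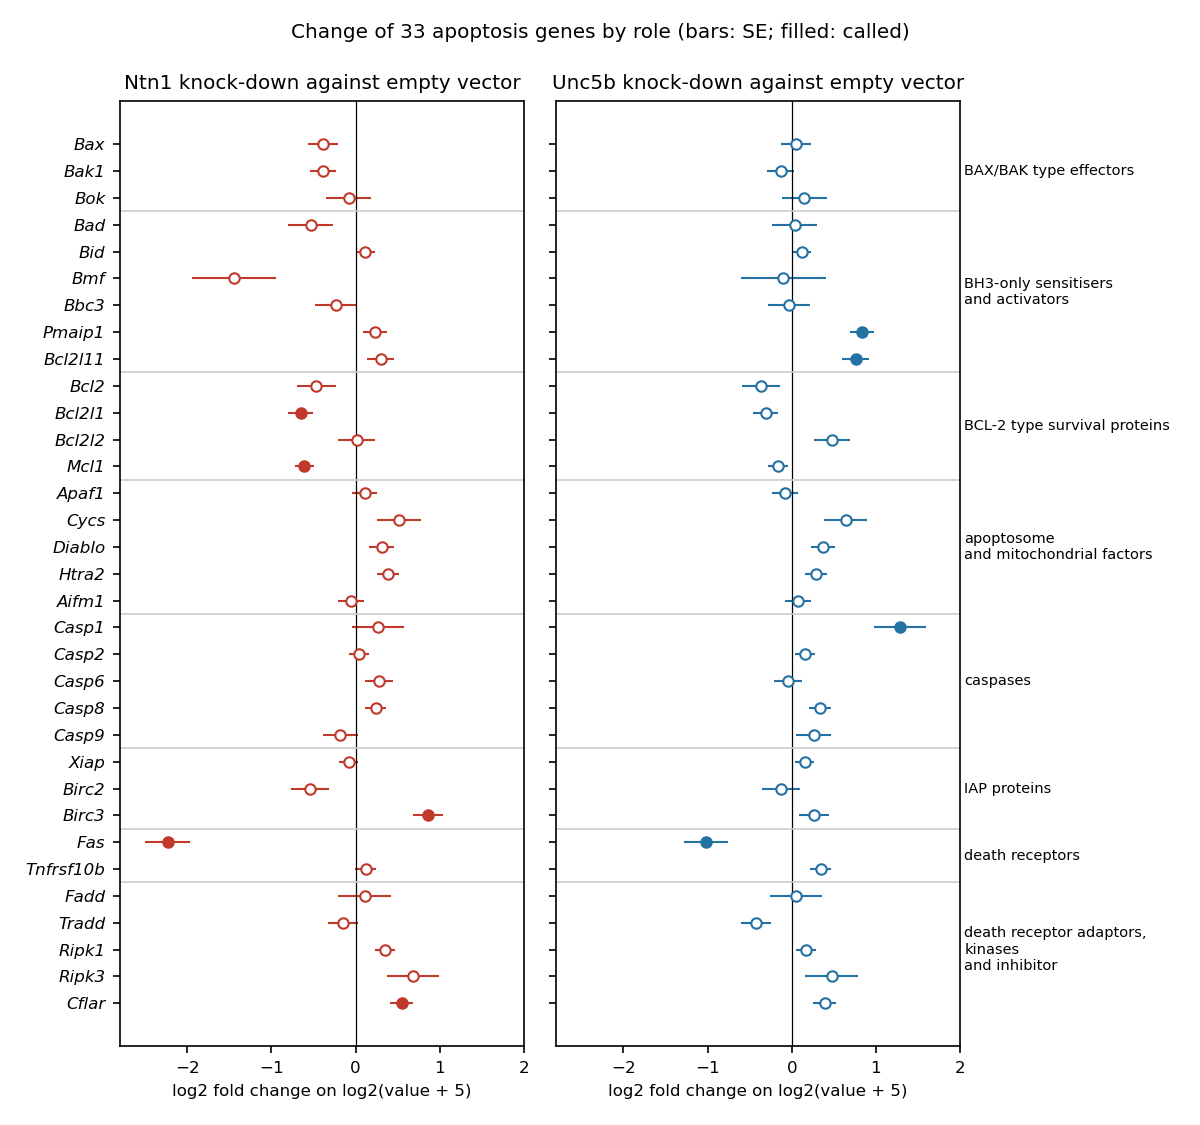
Log2 fold change on the log2(value + 5) scale with its SE for 33 members in each knock-down against the empty vector, ordered by role. Filled points were called, 5 in the Ntn1 knock-down and 4 in the Unc5b knock-down, and Fas lies lowest in both panels at -2.23 and -1.02.

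Of the 2 death receptor genes, Fas fell in both knock-downs and Tnfrsf10b passed in neither. Fas, which encodes the receptor for FAS ligand (ENSMUSG00000024778, chromosome 19, 34290666 to 34327772 on the plus strand of GRCm38), was the member that changed most in the Ntn1 knock-down, and its promoter is the first printed above. It was listed at 537 and 940 in the empty vector, 136 and 159 under Ntn1 knock-down and 385 and 315 under Unc5b knock-down. The 3 groups did not overlap, with the empty vector highest and the Ntn1 knock-down lowest, although the empty vector libraries lay far apart. Against the empty vector Fas fell 5.01-fold under Ntn1 knock-down (-2.23 ± 0.27 SE as log2 fold change, limma adjusted p = 0.00134). It fell 2.11-fold with Unc5b knocked down (-1.02 ± 0.27, adjusted p = 0.0435), and was 2.37-fold lower in the Ntn1 than in the Unc5b knock-down (-1.22 ± 0.27, adjusted p = 0.0328). The fall of Fas in the Ntn1 knock-down was called under all 15 other settings tried, with adjusted p from 0.000258 to 0.0286. Its fall in the Unc5b knock-down was not called without empty vector library 2 (adjusted p = 0.144), Unc5b knock-down library 1 (0.0998) or 2 (0.231), or Ntn1 knock-down library 1 (0.0956) or 2 (0.0951), nor with no filter (0.151), without the variance trend (0.103) or with the 4 libraries alone (0.0909). The direct difference was not called without Unc5b knock-down library 1 (0.17) or 2 (0.109), Ntn1 knock-down library 1 (0.254) or 2 (0.181), with no filter (0.121) or without the trend (0.0922).

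Tnfrsf10b, the mouse TRAIL receptor gene, did not follow Fas. It was listed at 1920 and 1601 in the empty vector, 1881 and 1933 under Ntn1 knock-down and 2321 and 2136 under Unc5b knock-down. The Ntn1 knock-down overlapped the empty vector and the Unc5b knock-down lay above it, and neither comparison passed (adjusted p = 0.575 and 0.127, the latter 0.0406 without empty vector library 1).

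Of the 5 receptor adaptors, kinases and the caspase-8 inhibitor, 1 rose in the Ntn1 knock-down and none passed with Unc5b knocked down (limma, 2 at an unadjusted p under 0.05). Cflar encodes c-FLIP, which occupies the caspase-8 platform (chromosome 1, 58711508 to 58758884, plus strand). It was listed at 1148 and 1370 in the empty vector, 1736 and 1945 under Ntn1 knock-down and 1738 and 1559 under Unc5b knock-down. Both knock-downs lay above the empty vector with no overlap. Cflar rose 1.46-fold with Ntn1 knocked down (log2 fold change 0.55 ± 0.14 SE, adjusted p = 0.0315) and did not pass in the Unc5b knock-down (0.39 ± 0.14, adjusted p = 0.11). Its call was lost without empty vector library 1 (0.0769), Ntn1 knock-down library 1 (0.138) or 2 (0.251), with no filter (0.0835) and without the trend (0.0962). The adaptors Fadd and Tradd and the kinases Ripk1 and Ripk3, which pass receptor signals to survival or to death, did not pass in either comparison (adjusted p from 0.0915 to 0.94), and 1 of these 4 had an unadjusted p under 0.05 in each. Ripk1 came nearest, at 1297 and 1139 in the empty vector against 1550 and 1556 under Ntn1 knock-down. Over the 6 libraries Fadd was listed at 185 to 361, Tradd at 222 to 343 and Ripk3 at 85 to 202. Without empty vector library 1, Ripk3 passed in both comparisons, as higher (0.0203 for Ntn1 and 0.0462 for Unc5b). The Cflar level divided by that of Casp8 in the same library was 0.765 and 1.06 in the empty vector, 1.08 and 1.16 under Ntn1 knock-down and 1.03 and 0.853 under Unc5b knock-down, a description with no test.

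Of the 4 BCL-2 type survival genes, 2 fell in the Ntn1 knock-down and none passed with Unc5b knocked down (limma, 0 at an unadjusted p under 0.05). Mcl1, which encodes a short-lived survival protein (chromosome 3, 95658788 to 95663176, plus strand), was listed at 4400 and 5161 in the empty vector, 3174 and 3064 under Ntn1 knock-down and 4230 and 4276 under Unc5b knock-down. The Ntn1 knock-down was lowest in both libraries and did not overlap the other groups. Mcl1 fell 1.53-fold there (log2 fold change -0.61 ± 0.11 SE, adjusted p = 0.00949). In the Unc5b knock-down its log2 fold change was -0.16 ± 0.11 (adjusted p = 0.407), and the direct difference of -0.45 ± 0.11 missed the threshold (adjusted p = 0.0542, and 0.0193 or 0.0189 without empty vector library 1 or 2). The fall was lost without Ntn1 knock-down library 1 (0.0971) or 2 (0.12) and without the trend (0.057).

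Bcl2l1 (chromosome 2, 152780668 to 152831728, minus strand) was listed at 2791 and 3096 in the empty vector, 1974 and 1764 under Ntn1 knock-down and 2697 and 2085 under Unc5b knock-down. The Ntn1 knock-down again lay below both other groups, and the Unc5b libraries were spread between them. Bcl2l1 fell 1.57-fold with Ntn1 knocked down (log2 fold change -0.65 ± 0.15 SE, adjusted p = 0.021) and did not pass in the Unc5b knock-down (-0.31 ± 0.15, adjusted p = 0.225). Bcl2, the founding member of the family, and Bcl2l2, which encodes BCL-W, did not pass in either comparison (adjusted p from 0.195 to 0.979), with Bcl2 at 778 to 1479 and Bcl2l2 at 385 to 735 over the libraries. Bcl2 passed as lower in the Ntn1 knock-down without empty vector library 1 (0.0362), and Bcl2l2 as higher in the Unc5b knock-down without library 2 of the empty vector (0.0323). The fall of Bcl2l1 was lost without Ntn1 knock-down library 1 (0.111) or 2 (0.194), without empty vector library 2 (0.0587), with no filter (0.0792) and without the trend (0.0817).

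Of the 8 BH3-only genes 6 were tested, and 2 of them rose in the Unc5b knock-down and none passed with Ntn1 knocked down (limma, 1 at an unadjusted p under 0.05). Pmaip1, which encodes NOXA, a partner of MCL1, was listed at 572 and 668 in the empty vector, 744 and 709 under Ntn1 knock-down and 1167 and 1056 under Unc5b knock-down. The Unc5b libraries stood above all others. Pmaip1 rose 1.79-fold with Unc5b knocked down (log2 fold change 0.84 ± 0.14 SE, adjusted p = 0.00767) and did not pass in the Ntn1 knock-down (0.23 ± 0.14, adjusted p = 0.317). It was 1.53-fold lower in the Ntn1 than in the Unc5b knock-down (-0.61 ± 0.14, adjusted p = 0.0405). Its rise was lost without Unc5b knock-down library 1 (adjusted p = 0.055). The direct difference was lost under 9 of 15 alternatives, including without Unc5b knock-down library 1 (0.187) or 2 (0.125), without Ntn1 knock-down library 1 (0.249) or 2 (0.286) and with median-of-ratios (0.0518) or upper-quartile scaling (0.0588).

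Bcl2l11, which encodes BIM, a BH3-only protein that binds all the main survival proteins (chromosome 2, 128126038 to 128162547, plus strand), was listed at 1692 and 1923 in the empty vector, 1916 and 2575 under Ntn1 knock-down and 3251 and 2879 under Unc5b knock-down. The Ntn1 knock-down overlapped the empty vector, and the Unc5b knock-down did not. Bcl2l11 rose 1.7-fold with Unc5b knocked down (log2 fold change 0.76 ± 0.16 SE, adjusted p = 0.0186), and in the Ntn1 knock-down its change was 0.30 ± 0.16 (adjusted p = 0.25). The direct difference did not pass (-0.46 ± 0.16, adjusted p = 0.131), so the knock-downs were not shown to differ for this gene. The rise was lost without Unc5b knock-down library 1 (0.105) or 2 (0.0703), with no filter (0.0891) and without the trend (0.0795).

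The level of Bcl2l11 divided by that of Bcl2l1 in the same library was 0.606 and 0.621 in the empty vector, 0.971 and 1.46 under Ntn1 knock-down and 1.21 and 1.38 under Unc5b knock-down. Divided by Mcl1 it was 0.385 and 0.373, 0.604 and 0.84, and 0.769 and 0.673. All 4 knock-down libraries lay above the empty vector in both ratios, which are within a library and so do not depend on its scaling. They were chosen after the values were seen and carry no test. In the Ntn1 knock-down the survival genes Bcl2l1 and Mcl1 were the members of these ratios called changed, and in the Unc5b knock-down Bcl2l11 was.

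The other 4 BH3-only genes tested did not pass. Bmf, which encodes a BH3-only protein tied to the cytoskeleton, was listed at 234 and 713 in the empty vector, 136 and 159 under Ntn1 knock-down and 556 and 262 under Unc5b knock-down. Both Ntn1 knock-down libraries lay below all others, but the spread of the other groups was wide and the adjusted p was 0.0914. Its log2 fold change there was -1.45, and -2.24 without empty vector library 1. The direct difference of Bmf did not pass in the main fit (-1.35, limma adjusted p = 0.153). It passed with the 4 libraries of that comparison alone (adjusted p = 0.0273). Bad, Bid and Bbc3, which encodes PUMA, had adjusted p from 0.218 to 0.571 in the Ntn1 and from 0.54 to 0.951 in the Unc5b knock-down. Over the 6 libraries Bad was listed at 107 to 220, Bid at 1470 to 1642 and Bbc3 at 98 to 143.

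None of the 3 pore-forming effector genes passed in limma, with 1 at an unadjusted p under 0.05 in the Ntn1 and 0 in the Unc5b knock-down. Bak1 was listed at 2466 and 1806 in the empty vector, 1653 and 1581 under Ntn1 knock-down and 1864 and 1987 under Unc5b knock-down. The Ntn1 libraries were the lowest, at adjusted p = 0.14, or 0.0173 without empty vector library 2. Bax was listed at 369 and 396, 264 and 321, and 365 and 431 in the same order (adjusted p = 0.192 and 0.889), and Bok at 270 to 456 over all 6 libraries.

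Of the 5 genes of the apoptosome and of mitochondrial factors none passed in limma, with 1 at an unadjusted p under 0.05 in the Ntn1 and 2 in the Unc5b knock-down. Apaf1, the apoptosome scaffold, was listed at 1195 and 1507 in the empty vector, 1524 and 1370 under Ntn1 knock-down and 1366 and 1174 under Unc5b knock-down, with overlap in both comparisons. Cycs, which encodes cytochrome c, Diablo and Htra2, which encode IAP antagonists, and Aifm1, a flavoprotein that can act in death, had log2 fold changes from -0.05 to 0.52 in the Ntn1 and, with Apaf1, from -0.08 to 0.64 in the Unc5b knock-down. The empty vector libraries of Cycs lay apart at 713 and 439. Cycs passed as higher without empty vector library 1 in both comparisons (adjusted p = 0.0359 and 0.0244), and Htra2 in the Ntn1 knock-down without library 2 (0.048). Over the 6 libraries Cycs was listed at 439 to 1072, Diablo at 466 to 674, Htra2 at 908 to 1300 and Aifm1 at 1061 to 1343. Cycs has processed copies in the genome that could share its reads, and more than 40% of the exon bases of Htra2 and Diablo overlap other annotated genes (43.7% and 40.9%), so the values of these 3 genes are uncertain.

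Of the 5 caspase genes, 1 rose in the Unc5b knock-down and none passed with Ntn1 knocked down (limma, 0 at an unadjusted p under 0.05). Casp1, which encodes the inflammasome caspase, was the gene called. It was listed at 49 and 73 in the empty vector, 64 and 83 under Ntn1 knock-down and 186 and 127 under Unc5b knock-down (chromosome 9, 5298517 to 5307265, plus strand). The Unc5b libraries were highest and did not overlap the others. The summed immune marker level was 1863 and 1314 in those libraries and 1436 and 1681 in the empty vector, with Adgre1 and Lyz2 at 0 in all 6. Within that list Mrc1 (21 and 56 against 4 and 2), Cd14 (184 and 160 against 134 and 137) and Cd68 (83 and 90 against 81 and 25) were also higher there. These genes stood higher still with Ntn1 knocked down (350 and 263, 190 and 202, and 107 and 122), while Casp1 overlapped the empty vector. Csf1r, most of the sum, overlapped under Unc5b knock-down (1569 and 1003 against 1213 and 1511) and was lower with Ntn1 knocked down (347 and 443). What part these markers had in the Casp1 rise of the Unc5b knock-down was not tested. Casp1 rose 2.57-fold there (log2 fold change 1.29 ± 0.31 SE, adjusted p = 0.0318) and did not pass in the Ntn1 knock-down (0.26 ± 0.31, adjusted p = 0.616), and the direct difference did not pass (-1.03 ± 0.31, adjusted p = 0.0898). The rise was lost under 9 of 15 alternatives, including without Unc5b knock-down library 1 (0.174) or 2 (0.0758), empty vector library 1 (0.0827) and Ntn1 knock-down library 1 (0.0675) or 2 (0.068).

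Casp8, the initiator of the receptor route, was listed at 1501 and 1287 in the empty vector, 1603 and 1682 under Ntn1 knock-down and 1682 and 1828 under Unc5b knock-down. Both knock-downs lay just above the empty vector, and neither passed (adjusted p = 0.247 and 0.133). Casp9, the initiator of the mitochondrial route, Casp2 and Casp6 had log2 fold changes from -0.18 to 0.28 in the Ntn1 and from -0.04 to 0.26 in the Unc5b knock-down and did not pass. Over the 6 libraries Casp9 was listed at 229 to 374, Casp2 at 1093 to 1313 and Casp6 at 338 to 492.

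Of the 3 IAP genes, 1 rose in the Ntn1 knock-down and none passed with Unc5b knocked down (limma, 0 at an unadjusted p under 0.05). Birc3, which encodes cIAP2, a ubiquitin ligase of the TNF receptor complex (chromosome 9, 7848699 to 7873186, minus strand), was listed at 338 and 286 in the empty vector, 575 and 560 under Ntn1 knock-down and 419 and 336 under Unc5b knock-down. The Ntn1 libraries were highest and the other groups overlapped. Birc3 rose 1.82-fold with Ntn1 knocked down (log2 fold change 0.86 ± 0.18 SE, adjusted p = 0.0147) and did not pass in the Unc5b knock-down (0.27 ± 0.18, adjusted p = 0.383) or directly (0.59 ± 0.18, adjusted p = 0.0882, and 0.0488 with the 4 libraries alone). The rise was lost without Ntn1 knock-down library 1 (0.133) or 2 (0.119).

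Birc2, its neighbour on chromosome 9 and the gene for cIAP1, was listed at 403 and 578, 290 and 373, and 494 and 396 in the same order and did not pass (log2 fold change -0.55 ± 0.23, adjusted p = 0.148 in the Ntn1 knock-down, and 0.0435 without empty vector library 1). The Birc3 level divided by that of Birc2 was 0.839 and 0.495 in the empty vector, 1.98 and 1.5 in the Ntn1 knock-down and 0.848 in both Unc5b libraries, so the paralogues stood in another proportion in the Ntn1 knock-down, a description with no test. Xiap, a direct caspase inhibitor gene, was the most abundant of these 3 IAP genes per kb. It was listed at 4072 and 4614 in the empty vector, 4185 and 3997 under Ntn1 knock-down and 4989 and 4672 under Unc5b knock-down. The Unc5b libraries were highest, and Xiap did not pass (adjusted p = 0.659 and 0.42).

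**Figure D3:**
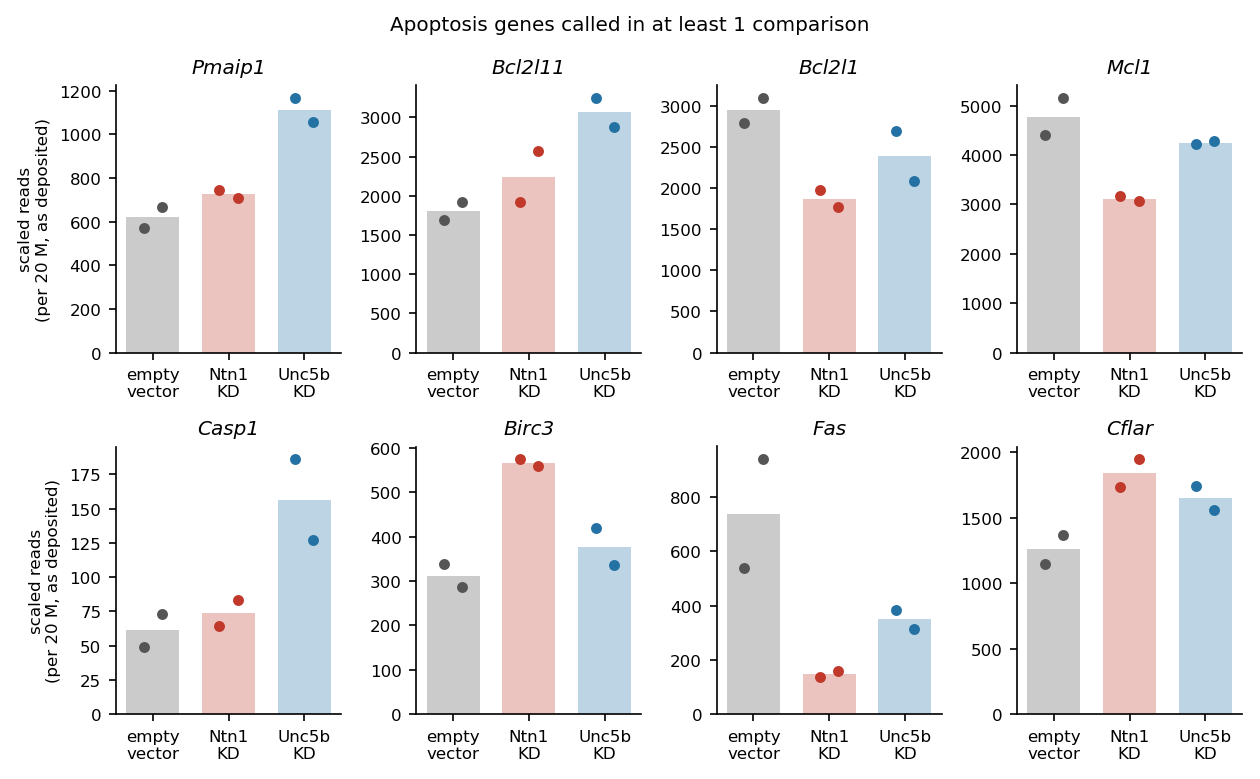
Scaled reads of the 8 members called in at least 1 comparison, with 1 point per library and bars at the group mean from 0. Fas is lowest in the Ntn1 knock-down at 136 and 159, Mcl1 and Bcl2l1 are lowest there too, and Pmaip1, Bcl2l11 and Casp1 are highest in the Unc5b knock-down.

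Several members are known as p53 targets, and the genotype includes floxed Trp53. Those named here were not taken from a fixed list and may not be all of them. Fas fell in both comparisons and Pmaip1 rose in the Unc5b knock-down, while Bax, Bbc3, Apaf1 and Tnfrsf10b did not pass in either, so the genes named were not called together. Trp53 itself was listed at 238 to 315 over the 6 libraries. The table gives whole genes and does not resolve the floxed exons.

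Other genes of cell death were read from a list of 101, of which 99 were found by name and 70 had a mean of at least 20. In the Ntn1 knock-down 10 of 70 were called, 7 higher and 3 lower, beside the 15.1% of all genes. In the Unc5b knock-down 13 were called, 8 higher and 5 lower, beside the 12%. The medians were -0.06 and 0.03 on the log2 scale, against -0.02 and 0.04 over all genes. The list was drawn up with earlier results of these data known.

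Of this list, Tnf, Tnfaip3, Traf1 and Pycard were called higher in both knock-downs and Cyld lower in both. Tnf, the cytokine gene, was listed at 10 and 7 in the empty vector, close to the floor, 136 and 107 under Ntn1 knock-down and 64 and 93 under Unc5b knock-down. It rose in both (log2 fold change 3.23 ± 0.33 and 2.62 ± 0.33 SE, adjusted p = 0.000712 and 0.0022). Tnfaip3, which encodes A20, a brake on TNF signalling, was listed at 3634 and 3066, 8158 and 8644, and 8569 and 9550, and rose 2.51-fold and 2.7-fold (adjusted p = 0.000431 and 0.000439). Traf1, a partner of the cIAP proteins, was listed at 920 and 478, 1890 and 2076, and 1255 and 1746, and rose 2.84-fold and 2.15-fold (adjusted p = 0.00823 and 0.0345). Its Unc5b call was lost with no filter, without the trend and with the 4 libraries alone, and its Ntn1 call with no filter. Cyld, a deubiquitinase gene that also restrains that signalling and was picked after its values were seen, was listed at 2828 and 3551, 1798 and 1789, and 2387 and 1983 (adjusted p = 0.008 and 0.0489). Its Unc5b call held under 4 of 15 other settings and was lost without empty vector library 2 (0.151), Unc5b knock-down library 1 (0.0657) or 2 (0.26) or either Ntn1 knock-down library (0.125). Its Ntn1 call was lost without Ntn1 knock-down library 1 (0.0907) or 2 (0.0923). Traf1 was not called in the Unc5b comparison without empty vector library 2 (0.063), Unc5b knock-down library 1 (0.0616) or 2 (0.214) or Ntn1 knock-down library 1 (0.0898) or 2 (0.0893), nor in the Ntn1 comparison without Ntn1 knock-down library 1 (0.0777) or 2 (0.0937).

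Dapk1, which encodes a death-associated kinase known to act below UNC5 receptors, was listed at 8 and 25 in the empty vector, 292 and 312 under Ntn1 knock-down and 43 and 35 under Unc5b knock-down. The Ntn1 libraries stood far above the rest. Dapk1 rose with Ntn1 knocked down (log2 fold change 3.96 ± 0.40 SE, adjusted p = 0.000712), did not pass with Unc5b knocked down (1.15 ± 0.40, adjusted p = 0.107), and was higher in the Ntn1 than in the Unc5b knock-down (2.81 ± 0.40, adjusted p = 0.00697). That difference was lost without Unc5b knock-down library 2 (0.0558), Ntn1 knock-down library 1 (0.103) or 2 (0.108) and with no filter (0.0577). Pawr, a pro-apoptotic gene, went the other way, from 2643 and 3386 in the empty vector to 1075 and 1183 in the Ntn1 knock-down (adjusted p = 0.00109), with 2507 and 2022 in the Unc5b knock-down (adjusted p = 0.145). It was also lower in the Ntn1 than in the Unc5b knock-down (-0.99 ± 0.16, adjusted p = 0.0108), a difference lost without Unc5b knock-down library 1 (0.0736), Ntn1 knock-down library 1 (0.159) or 2 (0.116), with no filter (0.0657) and without the trend (0.0634).

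The inflammasome adaptor gene Pycard was listed at 96 and 85 in the empty vector, 252 and 269 under Ntn1 knock-down and 150 and 204 under Unc5b knock-down, and rose in both (adjusted p = 0.00422 and 0.0356). Its Unc5b call was lost with no filter and with the 4 libraries alone. Gsdmd, which encodes the pore protein of pyroptosis that caspase-1 cleaves, was listed at 33 and 32, 90 and 92, and 53 and 28, and rose in the Ntn1 knock-down (adjusted p = 0.0325, with 0.731 in the Unc5b knock-down). So Gsdmd and Casp1, which act in 1 route, were called in different comparisons. Neither passed directly between the knock-downs (limma, adjusted p = 0.0898 and unadjusted p = 0.0102 for both). With the 4 libraries alone the direct difference of Casp1 passed (0.047). The Ntn1 call of Gsdmd was lost with no filter. Pycard lost its Unc5b call without empty vector library 2 (0.0954), Unc5b knock-down library 1 (0.0533) or 2 (0.226) or Ntn1 knock-down library 1 (0.0901) or 2 (0.0898). It lost its Ntn1 call without Ntn1 knock-down library 1 (0.0528) or 2 (0.0605), and Gsdmd without those (0.173 and 0.18) or empty vector library 1 (0.0579) or 2 (0.0768).

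In the Unc5b knock-down 3 more genes of the list had large changes. Traf3, an adaptor that holds back non-canonical NF-kB signalling, was listed at 1140 and 743 in the empty vector, 1251 and 1281 under Ntn1 knock-down and 1637 and 2041 under Unc5b knock-down (log2 fold change 0.99 ± 0.20 SE, adjusted p = 0.0177). Sphk1, a sphingosine kinase gene, was lower there at 336 and 280, from 538 and 775 (-1.06 ± 0.20, adjusted p = 0.013). Moap1, whose product binds BAX, was higher at 186 and 206, from 92 and 96 (1.02 ± 0.21, adjusted p = 0.0175), but 87.7% of its exon bases overlap another annotated gene, and its value is uncertain. With no filter the calls of Traf3 and Sphk1 were lost, and with the 4 libraries alone those of Traf3 and Moap1. The Traf3 call was also lost without the trend. Calls were lost without Unc5b knock-down library 2 for Traf3 (0.134), Sphk1 (0.101) and Moap1 (0.13), without library 1 for Moap1 (0.0679), and without Ntn1 knock-down library 1 or 2 for Traf3 (0.0586 and 0.0579).

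**Figure D4:**
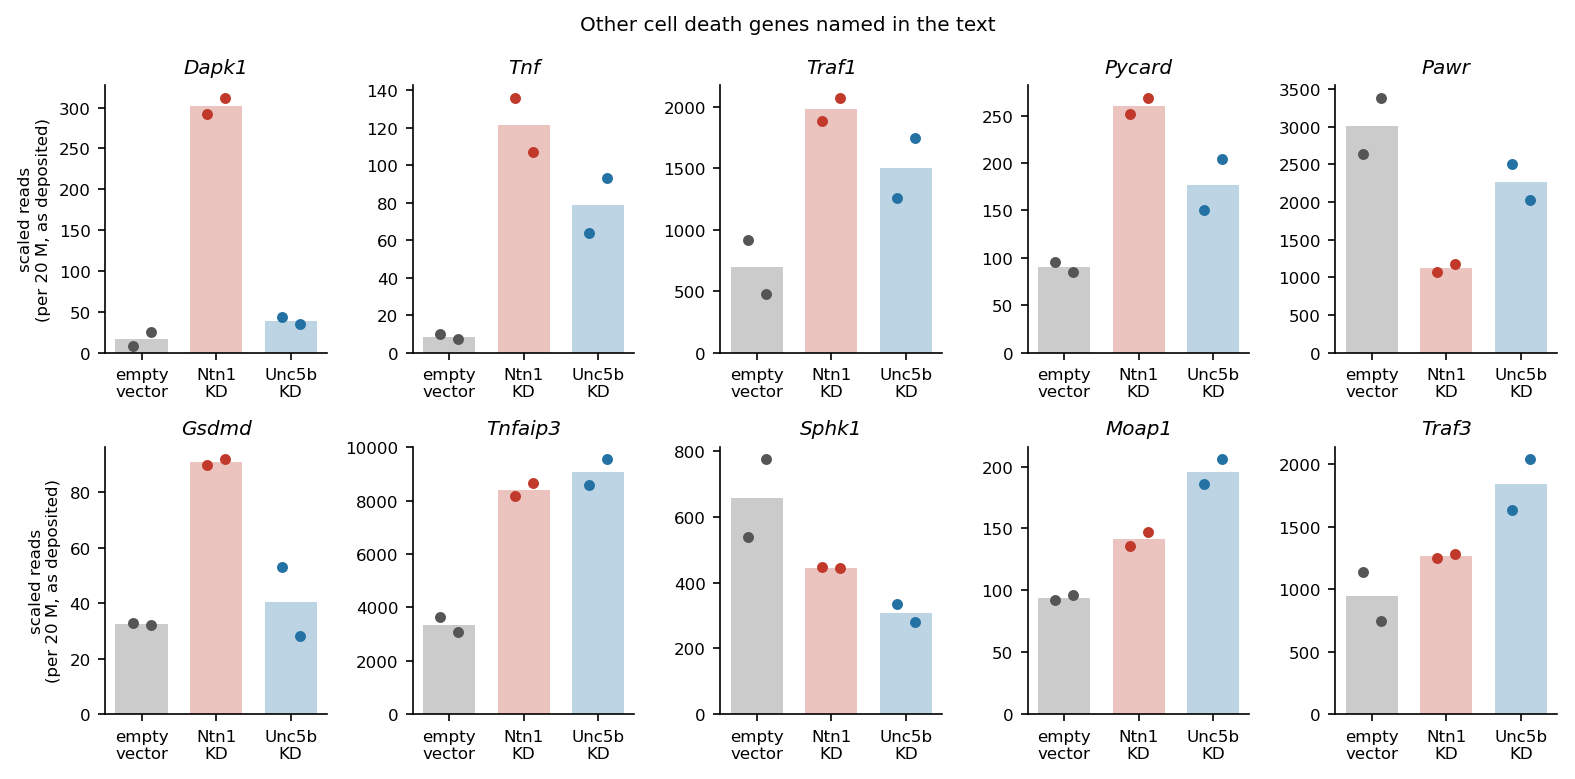
Scaled reads of 10 cell death genes outside the 35 members, with 1 point per library and bars at the group mean from 0. Tnf, Tnfaip3, Traf1 and Pycard are higher in both knock-downs, and Dapk1 stands out in the Ntn1 knock-down at 292 and 312.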

How the data were processed

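RNA sequencing values of 6 libraries, 2 per group, were read from the table the authors deposited. The deposited values are a score: the authors scaled reads per gene to library totals near 20 M and rounded them to whole numbers, per the deposited values themselves, so they are not raw counts. Per the submitters' processing notes STAR, Picard and HTSeq were used with GRCm38 (mm10), while their versions, the annotation, the strand setting and duplicate handling were not given in sources used here. Without the strand setting, reads of genes with overlapping exons cannot be told apart, which touches 11 of the 35 members. Depth was estimated from the spacing of values up to 150, within a rounding tolerance of 0.5, and is not known exactly, so no count model was fitted.

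Values were taken to log2(value + 5) for 15330 genes with a mean of at least 20. A model of 3 groups was fitted in R 4.3.3 using limma 3.58.1 and a variance trend, 3 residual and 5.33 prior degrees of freedom, two-sided p-values and Benjamini-Hochberg adjustment over all genes of a comparison. On this scale log2 fold changes understate changes of low genes, and folds are ratios of mean values as deposited. Exact permutation of 2 against 2 libraries gives no p below 0.333, so none was used. Exon lengths and positions are from GENCODE M21 of GRCm38. The alternatives were 2 other pseudocounts, 2 filters, 2 scalings, no trend, a replicate block, 4 libraries alone and leaving out each library.

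Named genes were all 35 members, with library values for those called or the most abundant of a role, and up to 6 other death genes called per knock-down by size of change. Some named items are not reported here. Fasl, Tnfsf10 and Cyld were added after their values were seen. The members and lists were chosen with earlier results of these data known.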

Additional observations from a re-analysis of the deposited data

How the results depend on the processing

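Of 11 member calls, 1 (Fas in the Ntn1 knock-down) held under all 15 other settings tried, and 0 changed direction. With no filter 7 calls were lost, with the trend left out 8, on leaving out either Ntn1 knock-down library 8, and with pseudocounts of 1 or 20 none. The cause was not tested.

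The values that follow are for the Ntn1 knock-down, the Unc5b knock-down and the direct comparison, in that order. Members called numbered 3, 1 and 0 with no filter and 2, 1 and 0 without the trend, and for the direct comparison 1 with median-of-ratios or upper-quartile scaling. The direct counts of 0 in limma had 8 and 6 members at an unadjusted p under 0.05. With the 4 libraries of a comparison alone the Unc5b and direct counts were 2 and 6. Leaving out 1 library gave 1 to 9, 0 to 6 and 0 to 4, and the direct count of 0 arose without each knock-down library (3 to 8 at an unadjusted p under 0.05, in limma). Other death genes called numbered 6, 3 and 1 with no filter, and 6 and 1 in the latter 2 without the trend, 4 in the Unc5b comparison with its 4 libraries, and 4 to 14, 3 to 14 and 0 to 8 leaving out 1 library (the 0 with 9 to 10 at an unadjusted p under 0.05, in limma). All genes called numbered 1289, 791 and 302 with no filter, 1462, 1115 and 454 without the trend, 950 (Unc5b) and 1856 (direct) with 4 libraries, and 507 to 2769, 680 to 2428 and 34 to 1842 leaving out 1 library.

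The replicate numbers pair nothing that the labels state, and deviations of same-numbered libraries correlated at 0.16, -0.45 and -0.17 between groups. With the replicate block 5 member calls were lost (Fas and Casp1 in the Unc5b comparison, Cflar in the Ntn1 comparison, Fas and Pmaip1 in the direct one), all genes called numbered 1465, 1102 and 459, members 2 (Unc5b) and 0 (direct, 9 at an unadjusted p under 0.05), and other death genes 6 (Unc5b). With the Unc5b numbers exchanged in the replicate block, chosen after seeing the data, all genes called numbered 4151, 3585 and 2617, members 12 (Ntn1) and 7 (direct), and other death genes 18 and 20 against the empty vector.

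Depth limits Bik and Hrk. Bik at 9 in Ntn1 knock-down library 2 lay at the 3-read floor, and Hrk at 17 in Unc5b knock-down library 1 lay above it. All their other values lay under the floor.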
